A study of Mus musculus with 9 samples.

Results

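Potassium channel subunits are the proteins that form potassium channels or are built into them, and their mRNAs were followed here in astrocyte ribosomes of the whole brain and of purified brain vessels. The genes were taken by name as all protein-coding genes whose symbol starts with Kcn and a further letter, leaving out Kcnj8, Kcnj10 and Kcnj13, which gave 91 of the 22092 genes found in the deposited counts. Of the 91 genes, 74 encode pore-forming subunits and 17 encode auxiliary subunits.

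Ribosome-bound mRNAs were purified by TRAP, in which an antibody pulls down ribosomes that carry an eGFP-tagged L10a protein, and with them the mRNAs they hold. All mice were 2 months old, were of the strain Aldh1L1 JD130 and carried the Aldh1l1:L10a-eGFP transgene (tg:Aldh1L1-L10aGFP), a bacterial artificial chromosome in which the Aldh1l1 promoter drives the tagged protein. The 3 whole astrocyte TRAP libraries were made from 1 brain each after removal of the choroid plexus, and the 6 endfeet TRAP libraries from purified brain vessels, each from a pool of 8 mice. No library of mice without the transgene or of input RNA was analysed here, so that tagged ribosomes of astrocytes and RNA carried along from other cells could not be separated by a control. The comparison addresses which subunit mRNAs lie on ribosomes in the perivascular endfeet relative to the whole astrocyte.

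Potassium channels let potassium leave or enter the cell along its gradient and so set the resting potential of neurons, glia, muscle and epithelia. In astrocytes they serve the uptake and release of the potassium set free by neurons, and endfeet place such channels against the vessel wall, where smooth muscle cells and endothelial cells carry potassium channels of their own that control vessel tone. Inward rectifiers and tandem pore domain channels are open near rest, Kv channels open on depolarization, other channels open with internal calcium or sodium, and auxiliary subunits change the gating or the traffic of a pore.

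Counts on the 22092 genes came to 35984144 to 43521208 in whole astrocyte TRAP and to 2319495 to 13450588 in endfeet TRAP, and endfeet libraries 6 and 1 held the fewest. The subunits took 0.214% to 0.241% of these counts in whole astrocyte TRAP, compared with 0.147% to 0.23% in endfeet TRAP. A count was found for 80 to 82 of the 91 subunits per whole astrocyte library and for 56 to 78 per endfeet library, where 3 counts stood for 0.223 to 1.29 CPM, which are counts scaled to a common library total. Libraries of the same group were not equally alike, since the common dispersion of the endfeet libraries was 0.724 and that of the whole astrocyte libraries 0.0141. Among the 41 subunits above 50 normalized counts in both groups, the median coefficient of variation was 0.115 and 0.647. The lowest endfeet value of these 41 fell in library 1 for 15 of them and in library 6 for 12, and the highest in library 1 for 15.

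The endfeet libraries were checked against markers of the cells that purified vessels can hold. Summed over each list, endothelial markers had 89.2 to 111 normalized counts in whole astrocyte TRAP, compared with 42637 to 62508 in endfeet TRAP, and 10 of 10 passed the test as higher. Mural markers, of smooth muscle cells and pericytes, had 620 to 686 and 52790 to 99907 (10 of 10 higher), fibroblast markers 369 to 536 and 9882 to 20105 (7 of 7), and microglial and macrophage markers 221 to 267 and 2679 to 4675 (6 of 9). Ependymal and choroid plexus markers had 707 to 18717 and 83846 to 1151290 (5 of 6 higher), most of it from Ttr. Neuronal markers had 46361 to 54096 and 14108 to 28675 (3 of 10 lower), and oligodendrocyte markers 8092 to 8269 and 3057 to 7415 (1 of 7 lower). Most of the neuronal sum in whole astrocyte TRAP came from Snap25. Astrocyte markers had 283977 to 310339 and 121071 to 377733, with 4 of 10 lower and 1 higher. No listed marker was at 0 in all endfeet libraries, and of all lists Ly6c1 alone was at 0 in all whole astrocyte libraries. The endfeet libraries therefore held mRNAs of vascular cells beside those of astrocytes, and the part of these cells in the results that follow was not tested. In such bulk samples a change in the number of cells of a type and a change in RNA per cell cannot be told apart.

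Endfeet and whole astrocyte TRAP were compared by the quasi-likelihood test of edgeR over 14427 genes, with p-values adjusted by the method of Benjamini and Hochberg, and a gene was called at an adjusted p of at most 0.05. Its filter on low counts kept 70 of the 91 subunits. Of these, 12 were higher in endfeet TRAP, which is 17.1% of the tested subunits beside 20.7% of all tested genes, and 3 were lower, which is 4.29% beside 13.9%. The remaining 55 did not pass, and 20 of the tested subunits had an unadjusted p under 0.05. In both directions the share of subunits called in this fit was below that of all tested genes. The median log2 fold change was 0.22 for the tested subunits and 0.10 for all tested genes. An alternative test, limma voom with group weights, gave 20 lower of the same 70 subunits. Shares of all genes are not given for the alternatives, so it is not shown whether the low share of subunits holds in them. Leaving out any of the whole astrocyte libraries 1, 2 or 3 left 5 subunits higher and 1 lower, while leaving out endfeet libraries 1 and 6 together, a choice made after seeing the data, gave 14 higher and 8 lower. The 3 lower calls became 6 without endfeet library 1 or 4 and 5 without library 5. Endfeet libraries 4, 5 and 6, which carry numbers of the same series as the whole astrocyte libraries, gave 8 higher and 8 lower on their own. What these numbers stand for is not stated, and no whole astrocyte library carries a number of the series of endfeet libraries 1, 2 and 3.

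**Figure D1:**
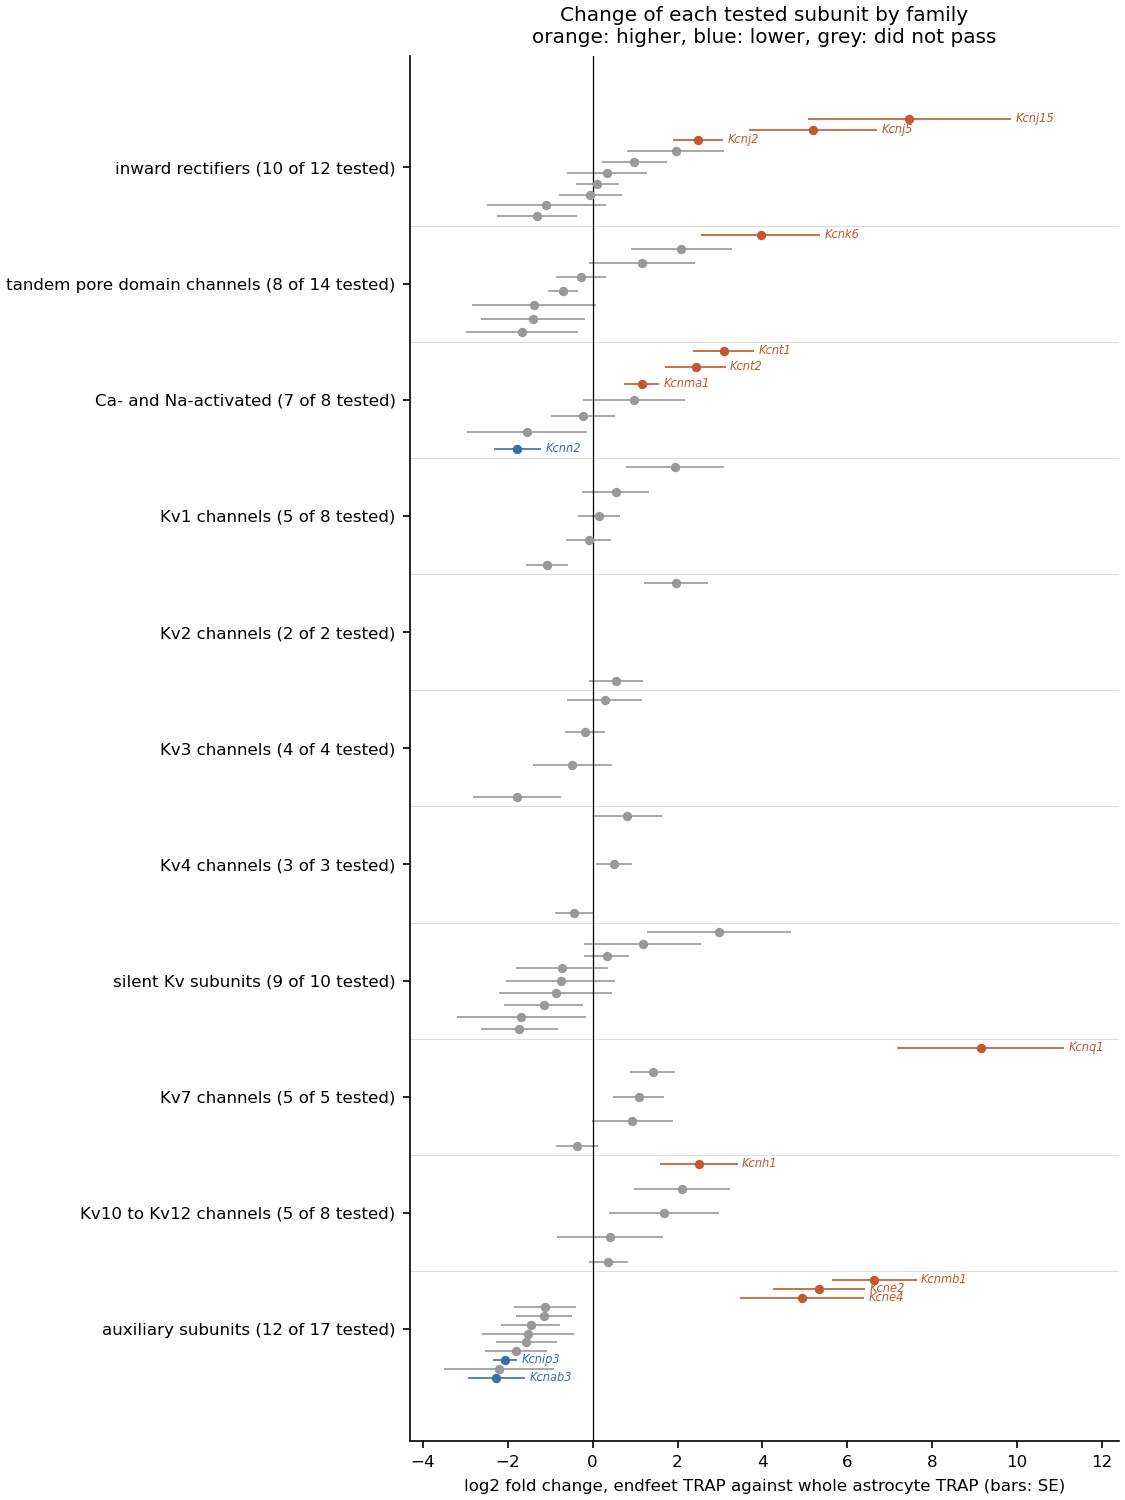
Log2 fold change of the 70 tested subunits, endfeet against whole astrocyte TRAP, 1 point per gene with its SE and grouped by family, positive values being higher in endfeet TRAP. The 12 higher subunits reached from 1.16 (Kcnma1) to 9.15 (Kcnq1) and the 3 lower ones from -1.77 (Kcnn2) to -2.27 (Kcnab3), and most families crossed the zero line.

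The libraries were also compared by whether the groups overlapped. Every endfeet library lay above every whole astrocyte library for 6 of the 70 tested subunits (8.57%, beside 19.1% of all tested genes) and below every one for 11 (15.7%, beside 23.3%). The groups overlapped for the other 53. The 6 subunits above were Kcne2, Kcnj2, Kcnma1, Kcnmb1, Kcnt1 and Kcnt2, and all 6 were also called. The other 6 called as higher, Kcne4, Kcnh1, Kcnj15, Kcnj5, Kcnk6 and Kcnq1, had at least 1 endfeet library within or below the range of whole astrocyte TRAP.

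With a mean above 50 normalized counts, which are counts divided by a size factor of the library, 43 subunits were present in whole astrocyte TRAP, compared with 58 in endfeet TRAP. Both groups shared 41, endfeet TRAP alone held 17, whole astrocyte TRAP alone held 2, Kcnip1 and Kcnmb4, and 31 were present in neither. Medians in place of means gave 43 and 48. Kcnk5, with 476 normalized counts in endfeet library 6, and Kcnj15, with 229 in library 3, are among the 17 through a single library. They are not the only ones of the 17 whose mean passed 50 in this way. Of the 21 subunits left untested, Kcne1, Kcnk16 and Kcnmb3 had no count in any library, which allows up to 1.29 CPM in the shallowest one. Another 5 untested genes, Kcnj1, Kcnk12, Kcnk15, Kcnk18 and Kcnv2, had fewer than 10 counts in all libraries together.

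Some untested subunits reached higher values in 1 or 2 endfeet libraries, and no call was made on them. Kcnk5, a tandem pore domain channel, had 476 normalized counts in endfeet library 6 but 2.49 to 5.03 in the other 5, beside 0.675 to 1.03 in whole astrocyte TRAP. Kcna3 and Kcnn4 are known in microglia and other immune cells. Kcna3 had 254 in endfeet library 6 and 20.8 in library 3, while the other 4 held 0 to 3.02, beside 2.70 to 6.38 in whole astrocyte TRAP, so that the endfeet median of 1.98 was below every whole astrocyte library. Kcnn4 had 87.8 and 45.7 in endfeet libraries 2 and 3 and 0 to 9.42 in the others, beside 0 to 1.35. Kcna7 had 22 counts in endfeet TRAP and none in the whole astrocyte libraries, and of these 22, 19 fell in library 4 and 3 in library 2. These 4 genes were picked after their values were seen.

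Levels of different genes were compared as mean normalized counts per kilobase of the transcript. In whole astrocyte TRAP the highest level was that of Kcnk1 with 1576 ± 203 (SD, n = 3), the tandem pore domain channel TWIK, followed by Kcnip3 with 1235 ± 11.8, Kcnj16 with 662 ± 88.1, Kcnn2 with 456 ± 46.1, Kcnip2 with 360 ± 34.7 and Kcna1 with 326 ± 43.2. In this order Kcnip2 and Kcna1 differed by less than the sum of their SDs, and the other neighbours by more. In endfeet TRAP the order opened with Kcnk1 at 984 ± 417 (SD, n = 6), Kcne2 at 950 ± 844 and Kcnj16 at 724 ± 553, and Kcnip3 followed with 299 ± 89.5, and Kcnq3 with 212 ± 103, Kcnk2 with 211 ± 136 and Kcnmb1 with 211 ± 145 came next. No neighbours in this order differed by more than the sum of their SDs. Kcnmb1 had been at rank 69 of the 91 subunits in whole astrocyte TRAP, with 2.11 ± 0.476.

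**Figure D2:**
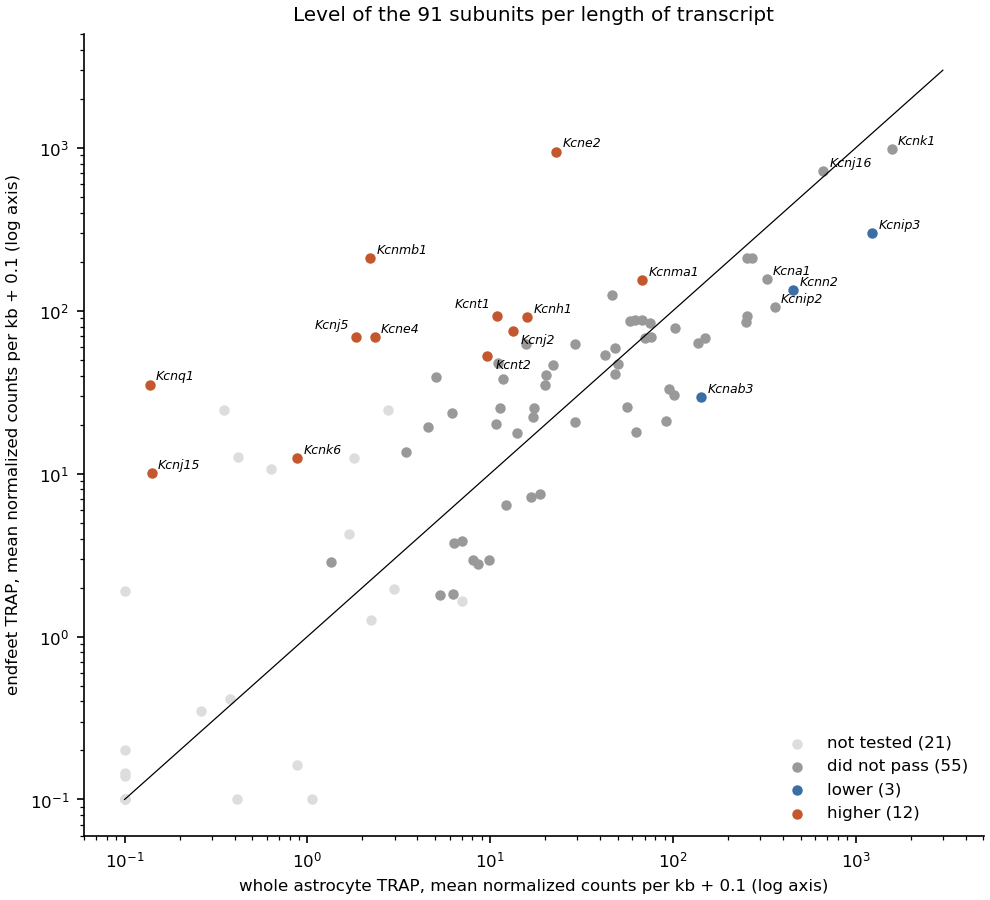
Mean normalized counts per kilobase of transcript for the 91 subunits in whole astrocyte TRAP (x axis) and in endfeet TRAP (y axis), both log axes after adding 0.1, with the line of equal levels and named points for called and highly counted genes. Kcne2 and Kcnmb1 lay far above the line at 950 and 211 in endfeet TRAP, while Kcnk1 and Kcnj16 lay near it at the upper end.

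Divided by family, the auxiliary subunits took the greatest part of the summed level per kilobase in both groups, 35.6% ± 2.58 in whole astrocyte TRAP, compared with 30.3% ± 3.31 in endfeet TRAP. Their leading gene was not the same, Kcnip3 in whole astrocyte TRAP and Kcne2 in endfeet TRAP. Tandem pore domain channels took 24.04% ± 1.35 and 19.2% ± 5.77, and inward rectifiers 10.7% ± 0.775 and 15.6% ± 4.66, with overlapping libraries in both families. The Kv10 to Kv12 channels took 1.57% to 1.74% in whole astrocyte TRAP, compared with 1.48% to 7.17% in endfeet TRAP, where library 6 alone was below the whole astrocyte libraries. These shares sum to a fixed total, so that a rise of one family lowers the others, and they were not tested.

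**Figure D3:**
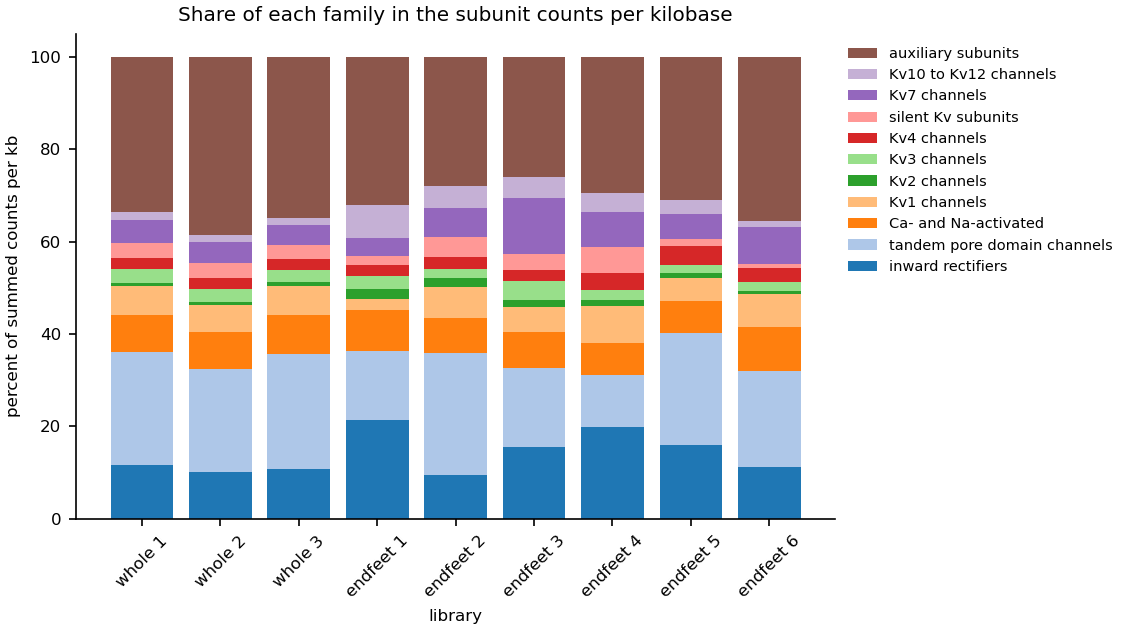
Share of each family in the summed normalized counts per kilobase of all subunits, as stacked bars in percent for the 3 whole astrocyte and the 6 endfeet libraries. The 3 whole astrocyte bars were nearly alike, and in endfeet TRAP the inward rectifiers ranged from 9.49% to 21.3% and the tandem pore domain channels from 11.1% to 26.3%.

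Among the 12 inward rectifiers, which pass potassium into the cell more easily than out of it, 10 were tested, 3 were higher in endfeet TRAP and none was lower. This count and those of the families below stand beside 20.7% of all tested genes higher and 13.9% lower. No family count was tested against these shares, and most families hold few tested members. Kcnj16, a subunit that pairs with the main astrocyte inward rectifier, was the most counted. It had 2709, 2076 and 2506 normalized counts in whole astrocyte TRAP, compared with 829 to 6406 (median 2040) in endfeet TRAP. The endfeet libraries lay on both sides of the whole astrocyte libraries, with library 1 highest and library 6 lowest, and Kcnj16 did not pass the test, with a fold change of 0.11 on the log2 scale (SE 0.511, adjusted p = 0.885).

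Kcnj2 (chromosome 11, 111066164 to 111076821 in mm10) encodes the classical strong inward rectifier, known in endothelial and smooth muscle cells, where external potassium can open it further. It had 98.5, 50.3 and 66.1 normalized counts in whole astrocyte TRAP, compared with 209 to 622 (median 385) in endfeet TRAP. All endfeet libraries were above all whole astrocyte libraries, and the log2 fold change was 2.49 (SE 0.589, adjusted p = 0.00537). Kcnj2 passed in all 19 alternative fits.

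Kcnj5, which forms channels opened by G proteins, had 9.30, 3.71 and 11.7 normalized counts in whole astrocyte TRAP, compared with 4.91 to 1268 (median 107) in endfeet TRAP. Its log2 fold change was 5.2 (SE 1.51, adjusted p = 0.0175), but endfeet library 1 lay within the whole astrocyte range and library 6 far above the rest, without which the log2 fold change was 4.01. The call was lost in 4 of 18 alternative fits. Kcnj15 (chromosome 16, 95257558 to 95300260), known in epithelia, was present mostly in 1 library. It had 2 counts in whole astrocyte TRAP against 315 in endfeet TRAP, a ratio of 331 (95% exact interval 90.8 to 2741, for counting error only). Of its endfeet values, libraries 1 and 4 were at 0, the median was 14.3 normalized counts and library 3 had 229. The call (adjusted p = 0.0282) was lost in 4 of the 13 alternative fits that kept the gene, and 6.54% of its transcript overlaps an antisense gene.

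Tandem pore domain channels carry the background potassium current, and of 14 members 8 were tested and 1 was higher. Kcnk1 had 3780, 2999 and 3787 normalized counts in whole astrocyte TRAP, compared with 1022 to 3261 (median 2140) in endfeet TRAP. No endfeet library was above all whole astrocyte libraries and 4 were below all of them, but Kcnk1 did not pass (log2 fold change -0.70, SE 0.345, adjusted p = 0.134). It passed as lower in 3 of 19 alternative fits. Kcnk2, the mechanosensitive channel TREK, had 857, 756 and 887 in whole astrocyte TRAP, compared with 83.4 to 1393 (median 613) in endfeet TRAP and overlapped, with a fold change of -0.27 on the log2 scale (SE 0.589, adjusted p = 0.757).

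Kcnk6, a relative of Kcnk1 known in endothelial and immune cells, was the member of this family that was called. It had 2.07, 4.73 and 2.78 normalized counts in whole astrocyte TRAP, compared with 2.45 to 98.9 (median 48.0) in endfeet TRAP, where library 1 fell among the whole astrocyte values. Its log2 fold change was 3.97 (SE 1.40, adjusted p = 0.0434), and the call was lost in 9 of 18 alternative fits.

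The channels opened by internal calcium or sodium had 8 members, of which 7 were tested, 3 were higher and 1 was lower. Kcnma1 (chromosome 14, 23289431 to 24014491) encodes the pore of the BK channel, which opens with calcium and voltage and relaxes smooth muscle, and which is also known in neurons and astrocyte endfeet. It had 340, 268 and 328 normalized counts in whole astrocyte TRAP, compared with 431 to 1200 (median 652) in endfeet TRAP, without overlap. The log2 fold change was 1.16 (SE 0.412, adjusted p = 0.0446) and the call was lost in 9 of 19 alternative fits, although the direction was kept in all of them.

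Kcnt1 and Kcnt2 encode sodium-activated channels, known mainly in neurons. Kcnt1 had 49.6, 62.8 and 77.4 normalized counts in whole astrocyte TRAP, compared with 149 to 1200 (median 516) in endfeet TRAP, a fold change of 3.09 on the log2 scale (SE 0.717, adjusted p = 0.00485). Kcnt2 had 63.0, 60.8 and 41.4 against 127 to 726 (median 205), a fold change of 2.42 on the log2 scale (SE 0.715, adjusted p = 0.0188). Neither gene overlapped between the groups, and in both library 4 was the lowest and library 1 the highest of the endfeet libraries. The call of Kcnt1 was kept in all 19 alternative fits and that of Kcnt2 was lost in 4.

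Kcnn2 (chromosome 18, 45268860 to 45686024) encodes a small-conductance calcium-activated channel known in neurons and astrocytes, and it moved the other way. It had 1708, 1495 and 1830 normalized counts in whole astrocyte TRAP, compared with 68.0 to 954 (median 393) in endfeet TRAP, and all endfeet libraries were below all whole astrocyte libraries. The log2 fold change was -1.77 (SE 0.561, adjusted p = 0.0266), a level 3.42-fold lower, and the call was lost in 7 of 19 alternative fits. Antisense genes overlap 16.5% of its transcript, and the sources used here do not state whether the counting used strand. The related Kcnn3, known in astrocytes and endothelium, had 149, 126 and 139 in whole astrocyte TRAP, compared with 17.2 to 242 (median 115) in endfeet TRAP and did not pass (log2 fold change -0.22, SE 0.751, adjusted p = 0.845).

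The Kv1 to Kv4 channels and the silent Kv subunits, which open or tune channels on depolarization and are best known in neurons, held 27 members. Of these, 23 were tested and none passed in either direction, beside 20.7% higher and 13.9% lower of all tested genes. In alternative fits Kcnb2, of the Kv2 family, passed as higher in 6 of 19 and Kcna5 in 1 of 18, both named after their values were seen. Another 6 members passed as lower in at least 1 alternative, all of them with limma voom, and of these Kcna1 did so in 5 of 19 fits. The most counted Kv1 genes were Kcna1 and Kcna2. Kcna1 had 1376, 1118 and 1450 normalized counts in whole astrocyte TRAP, compared with 130 to 1046 (median 716) in endfeet TRAP, and although all endfeet libraries lay below, the adjusted p was 0.105 (log2 fold change -1.07, SE 0.487). Kcna2 had 917, 831 and 861 against 235 to 1686 (median 1010), with a fold change of 0.15 on the log2 scale (SE 0.498, adjusted p = 0.846). For other leading genes of these families the groups overlapped, with log2 fold changes of -0.18 for Kcnc2, -0.43 for Kcnd2, 0.50 for Kcnd3 and 0.33 for Kcnv1. Kcng4, a silent subunit, had 401, 389 and 363 against 6.18 to 265 (median 93.6) without overlap, but was not called (log2 fold change -1.73, SE 0.908, adjusted p = 0.158).

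Of the 5 Kv7 channels, all were tested and 1 was higher. Kcnq3, which forms the neuronal M current, was the most counted, with 3633, 2991 and 2957 normalized counts in whole astrocyte TRAP, compared with 344 to 3970 (median 2624) in endfeet TRAP. Its groups overlapped and it did not pass (log2 fold change -0.37, SE 0.492, adjusted p = 0.595). Kcnq1 (chromosome 7, 143106362 to 143427042), a channel of heart and epithelia that is known in the choroid plexus, had 1 count in the whole astrocyte libraries together, in library 2, and 540 in the endfeet libraries. The ratio was 1133 (95% exact interval 203 to 44846, for counting error only), and the adjusted p was 0.0030. In normalized counts endfeet libraries 1 to 6 had 125, 231, 232, 22.1, 28.3 and 0, and library 6, the shallowest, was at 0 like 2 of the whole astrocyte libraries. The call was kept in the 17 alternative fits that tested the gene. The antisense RNA Kcnq1ot1 overlaps 3.99% of the transcript used.

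The 8 Kv10 to Kv12 channels, among them the heart channel Kcnh2, had 5 tested members, of which 1 was higher. Kcnh1 had 128, 103 and 112 normalized counts in whole astrocyte TRAP, compared with 65.4 to 2162 (median 369) in endfeet TRAP. Library 4 lay below the whole astrocyte libraries and library 1 far above all others, and the adjusted p was 0.0496 (log2 fold change 2.50, SE 0.916). The call was lost in 12 of 19 alternative fits, among them the one without library 1, where the log2 fold change was 1.63. Kcnh7 had 1081, 786 and 832 against 586 to 2309 (median 984) and overlapped (log2 fold change 0.37, SE 0.454, adjusted p = 0.559).

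Of the 17 auxiliary subunits 12 were tested. Of these, 3 were higher and 2 were lower, beside 20.7% and 13.9% of all tested genes. The median log2 fold change was -1.49, beside 0.36 for the 58 tested pore-forming subunits and 0.10 for all tested genes. The 9 tested members other than the 3 higher ones had log2 fold changes of -2.27 to -1.12, and 2 of these 9, Kcnip3 and Kcnab3, passed.

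Kcnmb1 (chromosome 11, 33963013 to 33973641) encodes the beta subunit that raises the calcium sensitivity of the BK channel in smooth muscle. It had 7.92, 11.1 and 7.49 normalized counts in whole astrocyte TRAP, compared with 92.8 to 1578 (median 1036) in endfeet TRAP, without overlap. The log2 fold change was 6.64 (SE 1.004, adjusted p = 0.000235), a 99.5-fold higher level, while its pore Kcnma1 was 2.23-fold higher. The difference between these changes was not tested. Libraries 6 and 1 had the lowest values, 92.8 and 213, and the call was kept in all 19 alternative fits. The smooth muscle marker Acta2 was at 43.2 to 57.2 normalized counts in whole astrocyte TRAP, compared with 5825 to 10753 in endfeet TRAP, and the part of smooth muscle in the change of Kcnmb1 was not tested.

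Kcne2 (chromosome 16, 92292389 to 92298129) encodes a small subunit that joins Kcnq1 and other pores and is known in stomach, heart and choroid plexus. It had 2.41, 79.0 and 34.4 normalized counts in whole astrocyte TRAP and, in endfeet libraries 1 to 6, 4201, 1490, 752, 594, 440 and 2158. The groups did not overlap, and the log2 fold change was 5.34 (SE 1.09, adjusted p = 0.00217), 40.4-fold on a linear scale. The log2 fold change was 6.37 without whole astrocyte library 2 and 4.73 without endfeet library 1. Ttr, a marker of the choroid plexus epithelium, had 362, 17631 and 14233 normalized counts in whole astrocyte TRAP, compared with 1134680, 488081, 322541, 164834, 81752 and 239927 in endfeet libraries 1 to 6. Whole astrocyte library 1 was the lowest and endfeet library 1 the highest library for both genes, and endfeet library 5 was the lowest endfeet library for both. In endfeet library 6, Kcne2 was above libraries 2 to 5, while Ttr was below libraries 1, 2 and 3. The part of choroid plexus RNA in the level of Kcne2 and Kcnq1 was not tested.

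**Figure D4:**
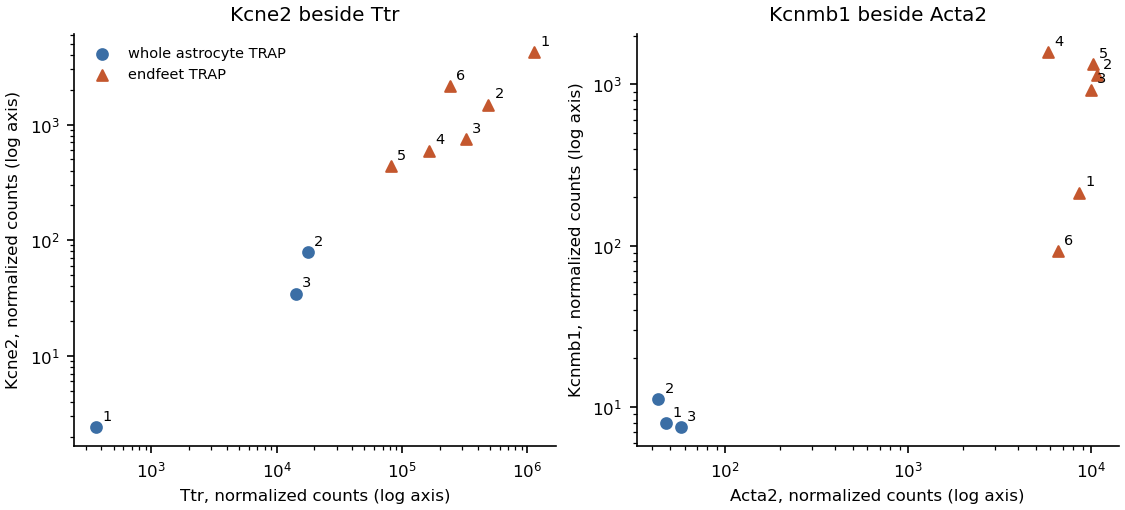
Normalized counts of Kcne2 against Ttr (left) and of Kcnmb1 against Acta2 (right) on log axes, 1 numbered point per library, circles for whole astrocyte and triangles for endfeet TRAP. Kcne2 was lowest where Ttr was lowest (whole astrocyte library 1, 2.41) and highest where Ttr was highest (endfeet library 1, 4201). Over the endfeet libraries Kcnmb1 ranged from 92.8 to 1578 and Acta2 from 5825 to 10753. The lowest Kcnmb1 value, in endfeet library 6, was 15 counts. No relation between a subunit and its marker was tested.

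Kcne4, a subunit that lowers the current of several Kv channels and is known in smooth muscle, had 2.76, 6.75 and 8.33 normalized counts in whole astrocyte TRAP, compared with 0 to 589 (median 120) in endfeet TRAP. Library 6 was at 0 and the other endfeet libraries were above whole astrocyte TRAP. Its log2 fold change was 4.94 (SE 1.46, adjusted p = 0.0191), or 3.999 without endfeet library 5, and the call was lost in 3 of 18 alternative fits.

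Kcnip3 (chromosome 2, 127456498 to 127522094) encodes a calcium-binding protein of the Kv channel interacting family, also known as a repressor of transcription. It was the lower subunit with the narrowest spread. It had 3379, 3403 and 3339 normalized counts in whole astrocyte TRAP, compared with 604 to 1208 (median 728) in endfeet TRAP, and even the highest endfeet library was far below the lowest whole astrocyte library. The log2 fold change was -2.06 (SE 0.282, adjusted p = 0.000111), a level 4.17-fold lower, and the call was kept in all 19 alternative fits. Its relative Kcnip2 had 1070, 1050 and 1246 against 92.4 to 1256 (median 137) and did not pass (log2 fold change -1.81, SE 0.736, adjusted p = 0.074). Endfeet library 1 lay at 1256 and the others at 243 or less. It passed as lower in 7 of 19 alternative fits. Kcnab3, a beta subunit of Kv1 channels, had 370, 337 and 381 against 9.81 to 116 (median 89.3) without overlap. Its log2 fold change was -2.27 (SE 0.679, adjusted p = 0.0202), and the call was lost in 5 of 18 alternative fits. Kcnab3os, an antisense gene, overlaps 5.79% of its transcript.

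**Figure D5:**
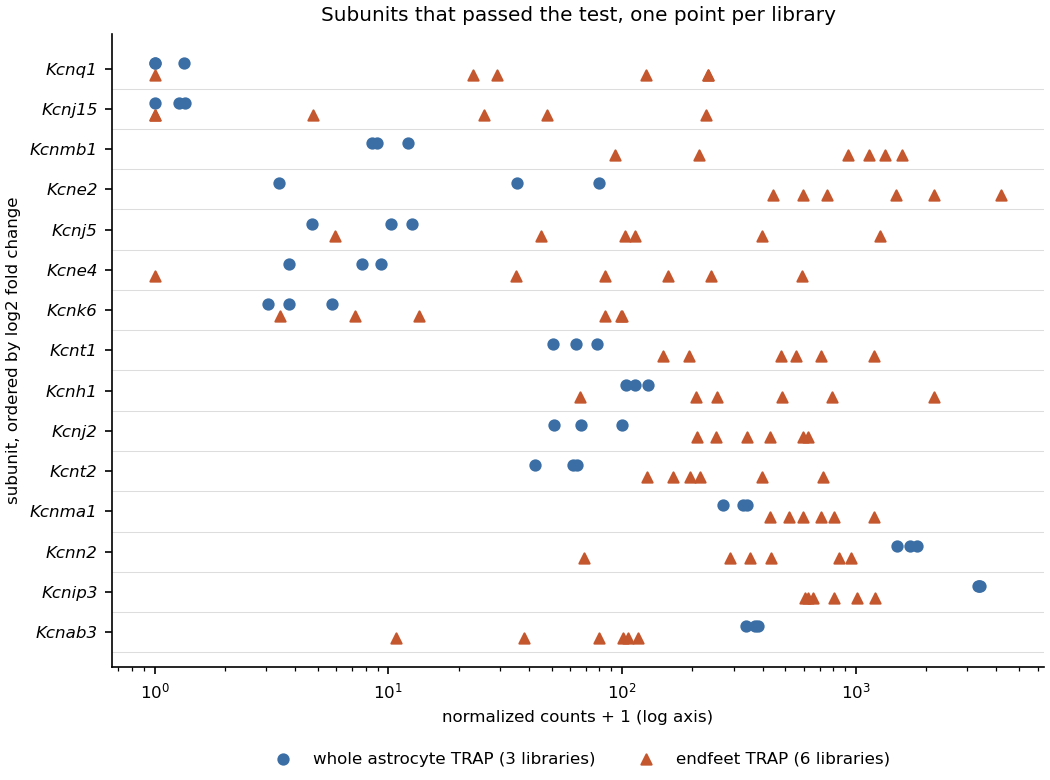
Normalized counts plus 1 (log axis) of the 15 called subunits in each of the 9 libraries, circles for whole astrocyte and triangles for endfeet TRAP, ordered by log2 fold change. The triangles of Kcnmb1, Kcne2, Kcnj2, Kcnt1, Kcnt2 and Kcnma1 all lay above the circles and those of Kcnip3, Kcnab3 and Kcnn2 all lay below, while Kcnj15, Kcnj5, Kcnk6 and Kcnh1 spread across or next to them.

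Lists of subunits known in single cell types were set beside these calls, and beside the 20.7% of all tested genes that were higher and the 13.9% that were lower. Several lists hold only a few genes, and some genes stand in more than 1 list. Of 8 subunits known in mural cells, all were tested, 4 were higher (Kcnma1, Kcnmb1, Kcnj2 and Kcne4) and none was lower, with a median log2 fold change of 2.02 beside 0.10 for all tested genes. Of the endothelial list, 3 of 5 were tested and 2 were higher (Kcnj2 and Kcnk6), and of the microglial list 2 of 4 were tested and 1 was higher (Kcnk6). Of 6 subunits known in astrocytes, none was higher and 1, Kcnn2, was lower, with a median of -0.35. Of 29 known in neurons, 2 (6.90%) were higher (Kcnh1 and Kcnt1) and none was lower, with a median of 0.15, and 5 (17.2%, beside 23.3% of all tested genes) had all endfeet libraries below whole astrocyte TRAP. These counts depend on which genes are listed. With Kcnma1 added, the astrocyte list held 1 higher and 1 lower of 7, and with Kcnma1, Kcnt2 and Kcnn2 added, the neuronal list held 4 higher and 1 lower of 32, a choice made after seeing the data. The summed mural and endothelial markers, given above, were higher in endfeet TRAP. Of the tested subunits of these 2 lists, 4 of 8 mural and 1 of 3 endothelial ones did not pass in either direction. Summed neuronal markers were lower, at 14108 to 28675 beside 46361 to 54096. Of this sum, Snap25 alone held 34188 to 41291 in whole astrocyte TRAP and 6526 to 18657 in endfeet TRAP. Only 3 of the 10 neuronal markers passed as lower. The neuronal list of subunits as first given held 2 higher and none lower. The part of these cell types in the calls was not tested.

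The promoters of the called mural subunits are shown so that the sequences before these genes can be compared. Their levels did not run in parallel among the endfeet libraries, since Kcnj2 and Kcnma1 were lowest in libraries 1 and 4 and Kcnmb1 and Kcne4 in library 6. RefSeq windows of 300 bases in GRCm38.p6, from 250 bases before the transcription start to 50 after it, were found for 66 of the 91 subunits. They were searched on both strands for the GC box GGGCGG, the E-box CACGTG and the CArG box of smooth muscle genes, none of which overlapped another in the windows shown. Capitals mark the matches, all 3 windows are on the plus strand, and the window of Kcnma1 is not shown because it lies 10286 bases from the start of the annotated gene.
Kcnmb1, chr11:33962763-33963062: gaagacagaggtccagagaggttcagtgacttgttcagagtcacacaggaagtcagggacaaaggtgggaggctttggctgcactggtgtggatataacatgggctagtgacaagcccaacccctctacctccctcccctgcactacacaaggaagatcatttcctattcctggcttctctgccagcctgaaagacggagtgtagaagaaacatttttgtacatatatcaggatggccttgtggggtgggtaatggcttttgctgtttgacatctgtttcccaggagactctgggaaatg
Kcnj2, chr11:111065914-111066213: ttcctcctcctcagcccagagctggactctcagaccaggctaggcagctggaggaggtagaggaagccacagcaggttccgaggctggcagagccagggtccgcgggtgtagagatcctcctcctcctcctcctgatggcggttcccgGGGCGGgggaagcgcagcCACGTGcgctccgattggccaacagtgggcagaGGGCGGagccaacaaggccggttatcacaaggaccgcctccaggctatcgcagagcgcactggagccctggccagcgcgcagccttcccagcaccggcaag
Kcne4, chr1:78816661-78816960: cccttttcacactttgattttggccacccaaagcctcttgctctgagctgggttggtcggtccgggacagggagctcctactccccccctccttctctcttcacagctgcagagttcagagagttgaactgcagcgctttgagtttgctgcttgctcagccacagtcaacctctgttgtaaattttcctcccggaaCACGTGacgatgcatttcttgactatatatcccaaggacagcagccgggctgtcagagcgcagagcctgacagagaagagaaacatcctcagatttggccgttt

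The window of Kcnmb1 held none of the 3 motifs, that of Kcnj2 held 2 GC boxes and 1 E-box, and that of Kcne4 held 1 E-box. No motif was thus common to the 3 windows. GGGCGG was found in 48.4% of the 91 windows that these 66 subunits have and in 35.7% of all 32851 windows, CACGTG in 7.69% and 7.15%, and the CArG box in 0% and 1.63%. A match describes the letters of the window and not a bound site.

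Partners of potassium channels whose symbols do not start with Kcn were listed as a further group of 26 genes, of which 23 were tested. In endfeet TRAP 8 were higher (34.8%, beside 20.7% of all tested genes) and 1 was lower (4.35%, beside 13.9%), with a median log2 fold change of 1.36 beside 0.10. Abcc9, the sulfonylurea receptor of vascular K-ATP channels and known in pericytes, changed most. It had 11.7, 0 and 8.33 normalized counts in whole astrocyte TRAP, compared with 1283 to 8847 (median 5219) in endfeet TRAP, a fold change of 9.56 on the log2 scale (SE 1.09, adjusted p = 2.6e-05), without overlap. Without whole astrocyte library 1 or 2 the log2 fold change was 10.2 and 8.97. Its relative Abcc8, of neurons and beta cells, had 10.6 ± 2.95 and 13.4 ± 23.3 and did not pass. Abcc8 was at 0 in 4 endfeet libraries, with an endfeet median of 0, and its endfeet counts came from libraries 2 and 3. With endfeet libraries 4, 5 and 6 alone it passed as lower.

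Of the chloride cotransporters that carry potassium, Slc12a7, Slc12a2 and Slc12a4 were higher without overlap. Slc12a7 had 16.7 to 18.6 normalized counts in whole astrocyte TRAP, compared with 432 to 1255 (median 687) in endfeet TRAP, a fold change of 5.35 on the log2 scale (SE 0.547, adjusted p = 1.04e-05). Slc12a2, which loads cells with chloride, had 247 to 273 and 1992 to 5867 (median 2616), a fold change of 3.72 on the log2 scale (SE 0.453, adjusted p = 4.28e-05). Slc12a4 followed, with a log2 fold change of 2.50. The neuronal Slc12a5 had 884 ± 157 and 586 ± 260 and did not pass (log2 fold change -0.61, SE 0.413, adjusted p = 0.273).

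Of the lysosomal and intracellular potassium channels, Tmem175 and Tmem38b were higher, with log2 fold changes of 1.53 and 1.36, although these calls were lost in 10 and 5 of 19 alternative fits. Of the proteins that bind or cluster Kv channels, Adam22 was higher (log2 fold change 1.71, SE 0.327, adjusted p = 0.00138) and the synaptic scaffold Dlg4 was lower. Dlg4 had 1436, 1438 and 1870 normalized counts in whole astrocyte TRAP, compared with 17.2 to 361 (median 291) in endfeet TRAP, a fold change of -2.75 on the log2 scale (SE 0.637, adjusted p = 0.00485). None of the 3 tested HCN channels, the 2 tested gamma subunits of BK or the 2 Kv4 partners passed.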

How the data were processed

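RNA bound to eGFP-tagged ribosomes was sequenced in 3 whole astrocyte and 6 endfeet TRAP libraries. The authors amplified the RNA, aligned reads to mm10 with Bowtie, removed reads aligning more than once, and counted overlaps with Ensembl annotation by HTSeq 0.5.3. The deposited values are raw counts per transcript, neither normalized nor filtered. Whether counting used strand is not given in the sources used here.

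Of 75466 transcripts, 73164 (96.95%) were matched to 22092 genes of GENCODE M21, and 2302 were not matched. For every gene the transcript with the largest CPM over all libraries together was used. The groups were compared in R 4.3.3 with edgeR 4.0.16 (TMM, filterByExpr, glmQLFit, glmQLFTest) with Benjamini-Hochberg adjustment, and SE was computed as the size of the log2 fold change over the root of F. Each whole astrocyte library is a separate brain and each endfeet library a separate pool, so p-values rest on the spread between these. The main test takes this spread as 1 dispersion per gene shared by both groups, although the common dispersions were 0.0141 and 0.724. Limma voom with group weights, which lets the groups differ in spread, gave 14 subunits higher and 20 lower. Normalized counts were obtained with size factors of DESeq2 1.42.0. Intervals of count ratios are exact (Clopper-Pearson, 95%) and, like floors of 3 counts, cover counting error only, since reads were amplified and are not independent molecules.

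Subunits are named when they passed, were among the 6 highest per kilobase in a group, among the 8 most counted that did not pass, or led their family. Kcnj16, Kcnj2, Kcnk1, Kcnma1, Kcnmb1 and Kcnn3 are named whatever their values. Values of some single genes that the rule names are not reported here. Members and lists were chosen with earlier results of these data known. Replicate numbers were shared by both groups, and same-numbered libraries deviated with correlations of -0.036, 0.017 and 0.038. Alternatives were DESeq2's Wald test, limma voom (limma 3.58.1) with group weights, DESeq2 size factors, other filters, summed transcripts, the number series that the libraries carry, a replicate block, and libraries left out. The tests were also run on simulated data. That simulation gave both groups the same dispersion for each gene, unlike the libraries here. It therefore cannot show how the tests behave when the groups differ in spread. Tables were handled in Python 3.11.15 with pandas 2.3.3, numpy 2.4.6 and scipy 1.17.1.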

Additional observations from a re-analysis of the deposited data

Results flagged for a closer look

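Among the 29 named subunits, 4 had an endfeet library that stood apart from the other 5 by Dixon's criterion for 6 values at 95%. For normally distributed values chance flags about 1 in 20 groups. The criterion was applied to normalized counts without a log scale, so that this rate need not hold here, and all 4 flags were high values. Kcnh1 had 2162 normalized counts in endfeet library 1 and 65.4 to 793 in the others. Kcnip2 had 1256 in library 1, beside 92.4 to 243. Kcnj15 had 229 in library 3, beside 0 to 46.8. Kcnj5 had 1268 in library 6, beside 4.91 to 396.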

How the results depend on the processing

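Limits: endfeet libraries were shallower and far more variable than whole astrocyte libraries, so that a subunit that did not pass may still differ. Subunits were 12 higher and 3 lower in the comparison as reported. Counts were 14 and 4 with DESeq2's Wald test, 14 and 20 with limma voom and group weights, 12 and 3 with DESeq2 size factors, 9 and 3 without the filter, 11 and 3 with summed transcripts, and 7 and 5 with at least 10 counts in every library, which kept 27 subunits. Endfeet libraries 4, 5 and 6 alone, which carry the same number series as the whole astrocyte libraries, gave 8 and 8, and the series as a covariate 8 and 3. Leaving out 1 library gave 5 to 12 higher and 1 to 6 lower, the lowest without any whole astrocyte library (5 and 1), and 6 lower without endfeet library 1 or 4 and 5 without library 5. Without endfeet libraries 1 and 6 the counts were 14 and 8. The cause of these shifts was not tested, apart from the fewer subunits or libraries that an alternative holds.

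Kcnmb1, Kcnj2, Kcnt1, Kcne2, Kcnq1 and Kcnip3 passed in each alternative that tested them. The replicate numbers did not pair the libraries, and the replicate block, which ties only endfeet libraries 1 to 3 to whole astrocyte libraries, gave 10 subunits higher and 4 lower, and 7 partners higher and 1 lower. It kept 9 of the 12 higher calls and 2 of the 3 lower ones. Partners (8 and 1) were 10 and 2 with DESeq2 and with limma voom, 7 and 0 with at least 10 counts, 6 and 4 with endfeet libraries 4, 5 and 6 alone, and 6 and 2 with the series as a covariate. They were 6 to 9 and 1 to 2 with 1 library left out (2 lower without endfeet library 6), and 9 and 2 without endfeet libraries 1 and 6. With more than 500 normalized counts 13 and 15 subunits were present, in place of 43 and 58.

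The sign turned, without a call on either side, for subunits near 0. The log2 fold change of Kcnj16 was -0.118 with limma voom, -0.0486 with at least 10 counts, -0.261 with endfeet libraries 4, 5 and 6, -0.131 with the series as a covariate, -0.0557 with the replicate block and -0.132 without endfeet libraries 1 and 6. With endfeet libraries 4, 5 and 6, Kcna2 had -0.0505 and Kcnv1 -0.124. Without endfeet libraries 1 and 6, Kcnk2 had 0.123 and Kcnn3 0.190. With 1 library left out, values ran from -0.344 to 0.305 for Kcnj16, from -0.108 to 0.353 for Kcna2, from -0.0886 to 0.556 for Kcnh7 and from -0.468 to 0.00391 for Kcnc2.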
